A study of Homo sapiens with 6 samples.

Results

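Cyclic AMP (cAMP) and cyclic GMP (cGMP) signalling was described through 59 genes that make, break down, bind or anchor the response to these second messengers: 10 adenylyl cyclases, 4 soluble guanylyl cyclase subunits, 23 genes with a PDE symbol, 7 subunits of protein kinase A (PKA), both cGMP-dependent kinases (PKG) and 13 A-kinase anchoring proteins (AKAPs). Members were chosen from the 61155 symbols of the table by a pattern on the symbol. The pattern uses no measured value, but it was drawn up with earlier results of these data known. Of the 59, 42 had enough counts to be tested, and 17 did not. The cells were MDA-MB-231, an established line from a human breast cancer of triple-negative, mesenchymal type, and RNA was read in 3 libraries with knockdown of VASP and 3 control libraries. Titles name an shVASP hairpin against an empty plko vector, while the sample characteristics name a VASP siRNA against a negative control siRNA, introduced by transient transfection with a Lipofectamine reagent. Which reagent was used could not be settled, but both sets of labels give the same groups. Cells were harvested 48 hours after transfection, in medium that held serum and insulin, and no agent that raises cAMP or cGMP is named for any group.

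VASP promotes the elongation of actin filaments at the leading edge and at adhesions, and it is a classic substrate of PKA and PKG. Adenylyl cyclases make cAMP downstream of receptors coupled to the stimulatory G protein, and soluble guanylyl cyclase makes cGMP when it binds nitric oxide. Phosphodiesterases (PDEs) hydrolyse both messengers, AKAPs tether PKA close to its substrates, and PKA phosphorylates the transcription factor CREB, which binds the cAMP response element.

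Knockdown reduced VASP mRNA in every library. VASP had 396, 379 and 360 counts in the knockdown libraries, against 4544, 5036 and 4708 counts in the control libraries, which is 12.9-fold lower (log2 fold change -3.69 with SE 0.06 and edgeR adjusted p = 8.3e-24). Libraries held 28856610 to 30055503 counts, so the floor of 3 counts lay at 0.0998 to 0.104 CPM. CPM are counts relative to library size, scaled here by the trimmed mean of M-values (TMM), and errors are SD over n = 3 libraries a group. Of 8 mesenchymal markers of the line, VIM, CD44, AXL, CAV1, MSN, PLAU and ANXA1 stood between 334 and 2048 CPM and SPARC was below 0.45 CPM. Of 8 luminal markers, CDH1 and PGR were at or near 0, ESR1 was at 0.51 to 0.83 CPM and GATA3 at 0.62 to 0.79 CPM. Others were expressed, with ERBB3 at 18.3 to 21.9 CPM, FOXA1 at 5.8 to 6.9 CPM and EPCAM at 4.8 to 6.6 CPM. The list's summed level was 204 to 209 CPM in knockdown and 184 to 193 CPM in control libraries. That sum was mostly XBP1, at 170.5, 174 and 173 CPM in knockdown and 149, 156 and 161 CPM in control libraries. Summed levels of 10 blood and endothelial markers were 7.72 to 9.19 CPM in knockdown and 9.12 to 10.1 CPM in control. They came mostly from KDR, CD14 and PECAM1. Means of these were 3.94, 2.27 and 2.05 CPM in knockdown and 3.93, 2.59 and 2.82 CPM in control. PECAM1 was called lower (log2 fold change -0.46, edgeR adjusted p = 0.026). That call was lost in DESeq2 (adjusted p = 0.075) and without knockdown library 3 (0.14) or control library 1 (0.12). Summed levels of 7 fibroblast markers were 6.87 to 7.33 CPM in knockdown and 6.46 to 7.92 CPM in control. DCN and LUM were at 0, and most of the sum came from COL1A1, with means of 5.89 CPM in knockdown and 6.10 CPM in control. The part of these shifts in the results was not tested.

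Knockdown moved members of every class except PKG, in both directions and mostly by small steps. Of the 42 tested members, 20 passed the threshold (edgeR, adjusted p under 0.05 over all 16633 genes tested): 11 rose and 9 fell. That share was 47.6%, beside 37.2% of all genes tested, of which 18.9% rose and 18.3% fell. The median log2 fold change, knockdown over control, was 0.01 over the tested members and -0.01 over all genes, and the median of its absolute value was 0.19 in both. Groups did not overlap for 26 of the 42 members, or 61.9%, beside 47.6% of all genes tested. Changes of 2-fold or more were seen for 3 called members, ADCY5, GUCY1A2 and PDE7B, as the plot of fold changes shows. Of the 42 tested members, DESeq2 called 10 up and 6 down, beside 16.5% of all genes up and 14.8% down (31.3% in either direction). The labels do not say whether libraries of a group are separate cultures, and p-values therefore measure a spread between libraries that may be technical. In bulk RNA, fewer cells expressing a gene and less of its RNA per cell cannot be told apart.

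**Figure D1:**
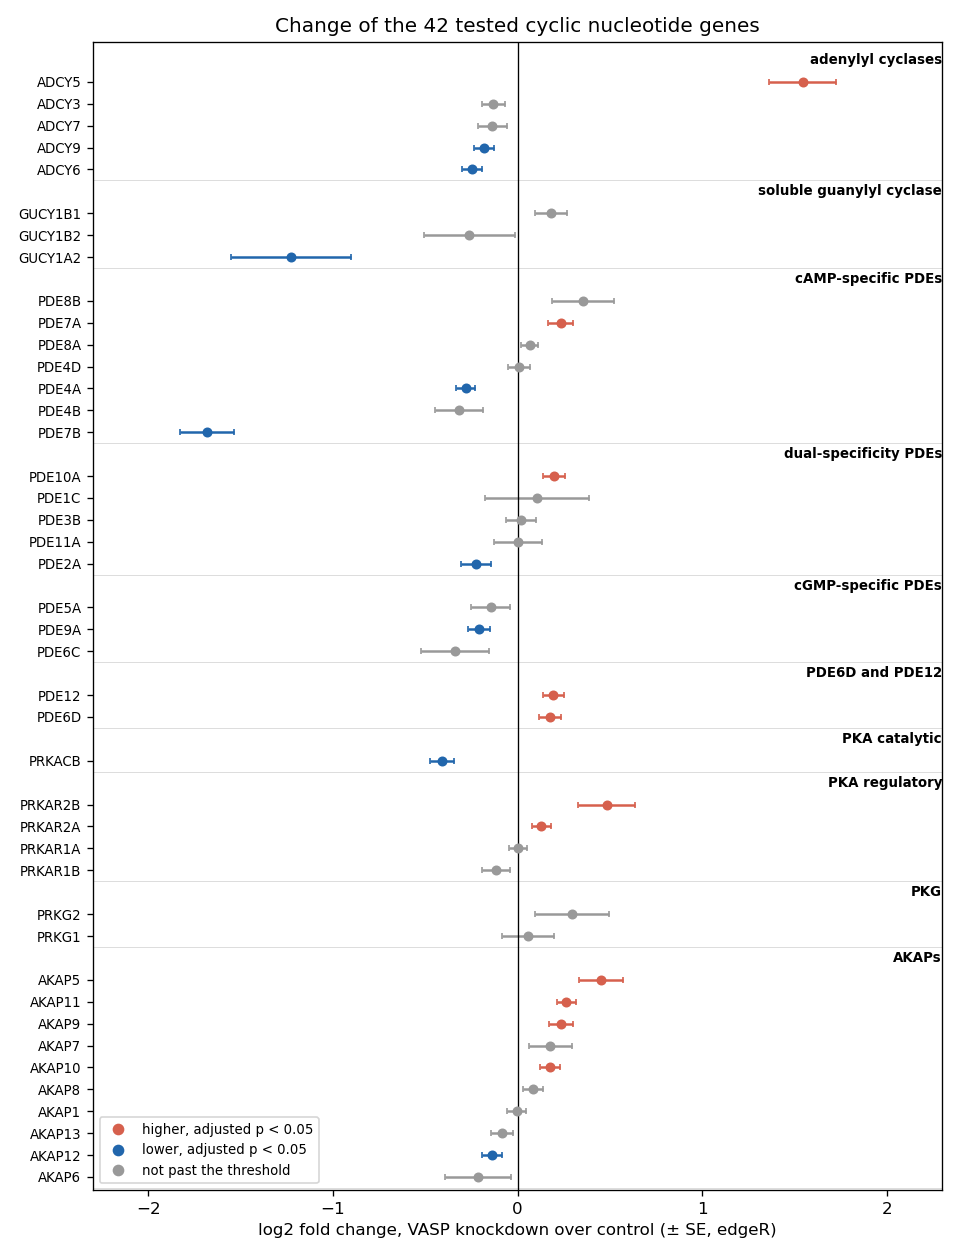
Log2 fold change, VASP knockdown over control, of the 42 tested members by role class, with bars of 1 SE. Colour shows the call at an edgeR adjusted p under 0.05: red for higher, blue for lower and grey for members not past the threshold. Most members lie within 0.5 of 0, and ADCY5 at 1.55, PDE7B at -1.68 and GUCY1A2 at -1.23 lie farthest from it.

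Of the adenylyl cyclases, ADCY5 rose, ADCY6 and ADCY9 fell, and the summed level of the class was lower in knockdown. Per kilobase of merged exons, the class summed to 18.5 ± 1.12 CPM in knockdown and 20.7 ± 0.414 CPM in control (SD, n = 3 each). The 5 cyclases tested are all membrane enzymes, and ADCY5 and ADCY6 form the pair that calcium inhibits. ADCY5 had 77, 74 and 78 counts in the knockdown libraries, against 28, 26 and 22 counts in the control libraries. The lowest knockdown library was more than double the highest control library, and ADCY5 was 2.92-fold higher (log2 fold change 1.55 with SE 0.18 and edgeR adjusted p = 7.0e-07). It remained the lowest of the 5, with 0.288 CPM per kb in knockdown and 0.0982 CPM per kb in control, and its share of their summed level was 1.56 ± 0.130% in knockdown and 0.476 ± 0.0513% in control. ADCY6, the closest relative of ADCY5, changed the other way.

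ADCY6 stood at 40.8, 40.9 and 37.8 CPM in the knockdown libraries, against 49.0, 46.8 and 46.1 CPM in the control libraries. Its groups did not overlap, and the level was 1.19-fold lower (log2 fold change -0.25 with SE 0.06 and edgeR adjusted p = 0.0012). ADCY9, a cyclase that forskolin activates only weakly, stood at 54.9, 50.9 and 50.1 CPM in the knockdown libraries, against 61.0, 58.6 and 57.0 CPM in the control libraries. Its groups did not overlap either, and it was 1.13-fold lower (log2 fold change -0.18 with SE 0.05 and edgeR adjusted p = 0.011). The highest level per length belonged to ADCY3, a cyclase known from olfactory cilia, with 6.68 CPM per kb in knockdown and 7.31 CPM per kb in control. ADCY3 stood at 44.8, 37.2 and 39.3 CPM in the knockdown libraries, against 43.9, 42.6 and 46.4 CPM in the control libraries, with overlapping groups and no call (log2 fold change -0.13 with SE 0.06 and edgeR adjusted p = 0.11). ADCY7 also had overlapping groups (16.0 ± 1.57 CPM in knockdown and 17.6 ± 1.01 CPM in control, edgeR adjusted p = 0.19). The ADCY9 call was lost without knockdown library 2 (adjusted p = 0.067), knockdown library 3 (0.071) or control library 1 (0.052), whereas ADCY3 passed without knockdown library 1 (log2 fold change -0.21, edgeR adjusted p = 0.020). Exons of ADCY7 and ADCY3 are shared with other genes over 41.6% and 26.0% of their bases, and fragments there were not counted.

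ADCY1, ADCY2, ADCY4, ADCY8 and the bicarbonate-sensitive soluble cyclase ADCY10 were not tested. ADCY10 had 2, 4 and 2 counts in knockdown and 6, 6 and 1 counts in control libraries, and the other 4 had at most 3 counts in a library. ADCY2 and ADCY4 had a count of 0 in all 6 libraries, which allows up to 3 counts in each. For ADCY4 that 0 cannot be read as a level. The annotation used for counting places its symbol on both a chromosome and a patch sequence, and fragments aligned to both were not counted. Among protein-coding symbols placed on 2 or more sequences, 626 of 1145 (54.7%) were at 0 in every library, against 2516 of 18682 (13.5%) placed on 1 sequence.

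**Figure D2:**
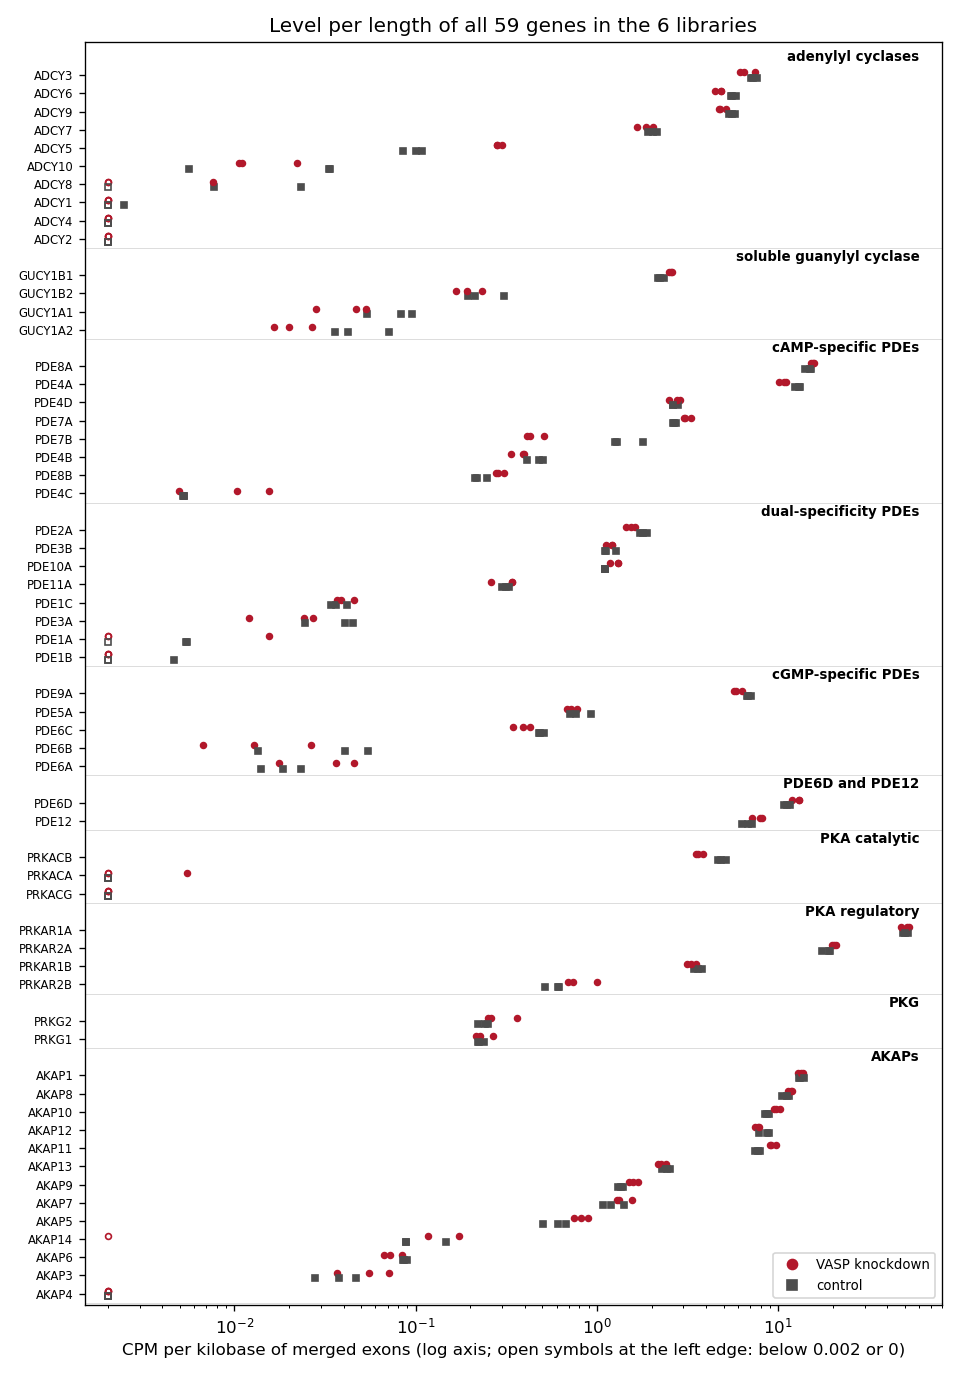
Level of all 59 members in each of the 6 libraries, as CPM per kilobase of merged exons on a log axis, by role class, with open symbols at the left edge for values below the axis or 0. PRKAR1A is highest, at about 50.4 CPM per kilobase in both groups, and the levels of ADCY5 and PDE7B separate the groups.

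Soluble guanylyl cyclase works as a dimer of an alpha and a beta subunit, of which beta carries the heme that binds nitric oxide. The class summed to 2.81 ± 0.0748 CPM per kilobase in knockdown and 2.61 ± 0.0837 CPM per kilobase in control. Most of that came from the beta gene GUCY1B1, with 2.55 CPM per kb in knockdown and 2.248 CPM per kb in control. GUCY1B1 stood at 10.2, 9.97 and 9.69 CPM in the knockdown libraries, against 9.11, 8.75 and 8.49 CPM in the control libraries. The groups did not overlap but the difference missed the threshold (log2 fold change 0.18 with SE 0.09 and edgeR adjusted p = 0.10). The alpha genes were sparse. GUCY1A2 had 10, 13 and 8 counts in the knockdown libraries, against 34, 20 and 17 counts in the control libraries. Every knockdown library was below every control library, and GUCY1A2 was 2.34-fold lower (log2 fold change -1.23 with SE 0.33 and edgeR adjusted p = 0.0046). That call rests on control library 1, since without it the log2 fold change was -0.88 (edgeR adjusted p = 0.060). GUCY1A1, the other alpha gene, was too low to test, with 5, 8 and 9 counts in knockdown and 14, 9 and 16 counts in control libraries. GUCY1B2, the second beta locus, had overlapping groups (0.801 ± 0.135 CPM in knockdown and 0.963 ± 0.242 CPM in control, edgeR adjusted p = 0.43).

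Among the phosphodiesterases specific for cAMP, PDE7B and PDE4A fell, PDE7A rose, and the class summed to 33.0 ± 0.236 CPM per kilobase in knockdown against 35.2 ± 1.00 CPM per kilobase in control. PDE7 enzymes have a high affinity for cAMP and resist rolipram, the classic PDE4 inhibitor. PDE7B had 93, 75 and 72 counts in the knockdown libraries, against 312, 216 and 221 counts in the control libraries. Scaled, this was 3.03, 2.53 and 2.45 CPM in the knockdown libraries, against 10.7, 7.44 and 7.63 CPM in the control libraries. The highest knockdown library was below the lowest control library by more than a factor of 2, and PDE7B was 3.21-fold lower (log2 fold change -1.68 with SE 0.15 and edgeR adjusted p = 4.6e-08). PDE7A, the only other gene of the family, stood at 22.5, 22.8 and 24.6 CPM in the knockdown libraries, against 20.2, 19.5 and 19.8 CPM in the control libraries. Its groups did not overlap, and it was 1.18-fold higher (log2 fold change 0.23 with SE 0.07 and edgeR adjusted p = 0.0074). Per length, PDE7B made up 12.5 ± 1.69% of the family's counted RNA in knockdown and 34.9 ± 4.22% in control, and PDE7A made up the rest. Exons of PDE7B share 452 bases (7.6%) with the antisense gene AL138828.1, which had 48, 42 and 50 counts in knockdown and 100, 103 and 88 counts in control libraries. Strand was not used in counting, so unspliced RNA of the one gene can be counted with the other. The PDE7A call was lost without knockdown library 3 (adjusted p = 0.051).

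The cAMP response element, TGACGTCA, is the palindrome that CREB binds, and it was looked for in the promoters of the members. It is shown here because PDE7B, the member with the largest decrease, holds it. RefSeq promoters (GRCh38.p14, 250 bases before to 50 after each annotated start) were at hand for 50 of the 59 members. The full element was present in 3 of the 50 members (6%), PDE4A, PDE7B and PRKAR1A, beside 614 of 27305 genes (2.25%). Among tested genes it was present in 3 of 36 members (8.33%), beside 386 of 10804 genes (3.57%). Its core TGACG, read on both strands and contained in the full element, was present in 21 of the 50 members (42%) and in 28.4% of genes. Among tested genes, 15 of 36 members (41.7%) and 39.2% of genes held the core. A gene was counted once however many promoters it had, with 121 promoters for the 50 members and 35116 for the 27305 genes. Per promoter, the full element was present in 3.31% for members and 1.85% for all genes, and the core in 24% and 24.6%. The 3 elements are shown with their flanks, 30 bases each on the plus strand, which is the strand of each gene, with the element in capitals.
PDE7B, chr6:135851535-135851564: actaaacccttTGACGTCActcttgaaatg
PDE4A, chr19:10416759-10416788: cgtcagtccgcTGACGTCAcgccccaggag
PRKAR1A, chr17:68512370-68512399: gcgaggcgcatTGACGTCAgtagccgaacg
The element lies at positions -155 to -148 from the start site in PDE7B, at -3 to 5 in PDE4A and at -49 to -42 in PRKAR1A, which has other annotated starts, and from one of them the same element lies just after the start. Of these 3 genes, PDE7B and PDE4A fell, and PRKAR1A had a log2 fold change of 0.00. The 250 bases before the PDE7B start site, chr6:135851451-135851700 on the plus strand, show the element in its wider setting, again in capitals.
PDE7B promoter: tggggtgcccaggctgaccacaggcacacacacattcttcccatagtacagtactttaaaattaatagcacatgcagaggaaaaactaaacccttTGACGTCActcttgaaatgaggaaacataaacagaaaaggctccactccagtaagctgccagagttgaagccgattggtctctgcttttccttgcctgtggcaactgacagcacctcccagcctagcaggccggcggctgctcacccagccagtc
A match of letters is a description of the sequence, and these data hold no measure of binding at it.

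PDE4A, a rolipram-sensitive enzyme, was second in level per length within the cAMP-specific class, with 10.6 CPM per kb in knockdown and 12.9 CPM per kb in control. It stood at 74.4, 72.3 and 68.4 CPM in the knockdown libraries, against 89.6, 88.0 and 84.0 CPM in the control libraries. Groups did not overlap, and PDE4A was 1.22-fold lower (log2 fold change -0.28 with SE 0.05 and edgeR adjusted p = 1.2e-04). PDE4D, the second PDE4 gene by level, was not called, at 43.8 ± 3.15 CPM in knockdown and 43.6 ± 1.82 CPM in control (log2 fold change 0.01 with SE 0.06 and edgeR adjusted p = 0.94). Within the PDE4 family, PDE4A made up 77.5 ± 1.18% of the level per length in knockdown and 80.3 ± 0.578% in control, and PDE4D made up 19.7 ± 1.32% in knockdown and 16.7 ± 0.700% in control. PDE4B, the form prominent in inflammatory cells, was low, at 3.33 ± 0.293 CPM in knockdown and 4.15 ± 0.442 CPM in control. Its groups did not overlap, yet it missed the threshold (log2 fold change -0.32, edgeR adjusted p = 0.060), and it passed without control library 3 (adjusted p = 0.023). PDE4C had at most 3 counts in a library and was not tested. Its exons are shared with other genes over 70.8% of their bases, and fragments there were not counted. Its low count therefore cannot be read as a level, and the family shares hold for counted RNA only.

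PDE8A, a high-affinity enzyme that the general inhibitor IBMX does not block, had the highest level per length of any phosphodiesterase here, with 15.5 CPM per kb in knockdown and 14.8 CPM per kb in control. It had 3743, 3675 and 3687 counts in the knockdown libraries, against 3552, 3283 and 3488 counts in the control libraries. Groups did not overlap, but the difference was small and missed the threshold (log2 fold change 0.06 with SE 0.05 and edgeR adjusted p = 0.30). PDE8A made up 46.8% of the summed level of the class in knockdown and 42.04% in control. PDE8B was at 2.01 ± 0.108 CPM in knockdown and 1.57 ± 0.124 CPM in control (edgeR adjusted p = 0.10), and 41.6% of its exon bases are shared with other genes.

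The dual-specificity phosphodiesterases hydrolyse both messengers, and in this class PDE10A rose and PDE2A fell. PDE10A, best known from striatal neurons, stood at 32.01, 31.8 and 28.9 CPM in the knockdown libraries, against 27.1, 26.9 and 26.9 CPM in the control libraries. The groups were separate, and it was 1.15-fold higher (log2 fold change 0.20 with SE 0.06 and edgeR adjusted p = 0.014). PDE2A, which cGMP activates, stood at 11.6, 10.4 and 11.1 CPM in the knockdown libraries, against 12.4, 13.5 and 12.9 CPM in the control libraries. The groups were separate here too, and PDE2A was 1.17-fold lower (log2 fold change -0.23 with SE 0.08 and edgeR adjusted p = 0.031). PDE2A had the highest level per length of the class, with 1.54 CPM per kb in knockdown and 1.80 CPM per kb in control. PDE3B, which cGMP inhibits, was at 13.7 ± 0.658 CPM in knockdown and 13.5 ± 1.05 CPM in control and PDE11A at 3.93 ± 0.576 CPM in knockdown and 3.92 ± 0.189 CPM in control, with edgeR adjusted p = 0.87 and 0.99. The calmodulin-activated PDE1C had 14 to 19 counts in a library, with no call, and PDE1A, PDE1B and PDE3A were too low to test. The PDE10A call was lost without knockdown library 1 (adjusted p = 0.068), and that of PDE2A without knockdown library 2 (0.16), knockdown library 3 (0.068) or control library 2 (0.12), in DESeq2 (0.067) and with no filter on low counts (0.086).

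Of the phosphodiesterases specific for cGMP, PDE9A, the enzyme with the highest affinity for cGMP, fell. PDE9A had 921, 982 and 906 counts in the knockdown libraries, against 1042, 1083 and 1037 counts in the control libraries. In CPM, as in counts, no knockdown library reached a control library, and PDE9A was 1.16-fold lower (log2 fold change -0.21 with SE 0.06 and edgeR adjusted p = 0.0069). It made up 83.6% of the class per length in both groups, and the class summed to 7.09 ± 0.312 CPM per kilobase in knockdown and 8.21 ± 0.183 CPM per kilobase in control. PDE5A, the target of sildenafil, had overlapping groups, with 6.95 ± 0.438 CPM in knockdown and 7.69 ± 1.05 CPM in control (log2 fold change -0.15 with SE 0.11 and edgeR adjusted p = 0.30). Of the photoreceptor genes, PDE6C had 34 to 50 counts in a library and no call (edgeR adjusted p = 0.15), and PDE6A and PDE6B were not tested. Without knockdown library 1 the PDE9A call was lost (adjusted p = 0.051).

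PDE6D and PDE12 match the symbol pattern but hydrolyse neither messenger. PDE6D is a chaperone of prenylated proteins such as RAS, and PDE12 trims adenosine tails of mitochondrial RNA, so both are kept apart from the enzyme classes. PDE6D stood at 33.4, 36.8 and 36.7 CPM in the knockdown libraries, against 30.4, 31.8 and 32.6 CPM in the control libraries. Knockdown and control values did not overlap, and it was 1.13-fold higher (log2 fold change 0.17 with SE 0.06 and edgeR adjusted p = 0.025). PDE12 stood at 71.1, 64.3 and 72.7 CPM in the knockdown libraries, against 56.8, 61.2 and 63.9 CPM in the control libraries. Its groups were separate as well, and it was 1.14-fold higher (log2 fold change 0.19 with SE 0.06 and edgeR adjusted p = 0.0099). The call of PDE6D was lost without knockdown library 2 (adjusted p = 0.078), knockdown library 3 (0.094), control library 1 (0.090) or control library 2 (0.063), and that of PDE12 without knockdown library 3 (0.058) or control library 1 (0.062).

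Of PKA, the catalytic gene PRKACB fell while the regulatory genes PRKAR2A and PRKAR2B rose. PKA is held inactive as a tetramer of regulatory and catalytic subunits, and cAMP binding to the regulatory subunits frees the catalytic ones. PRKACB, the beta catalytic subunit, stood at 26.0, 23.6 and 24.4 CPM in the knockdown libraries, against 34.8, 32.4 and 31.2 CPM in the control libraries. The groups did not overlap, and PRKACB was 1.33-fold lower (log2 fold change -0.41 with SE 0.06 and edgeR adjusted p = 2.4e-05). PRKACA, the alpha catalytic subunit, had 0, 2 and 0 counts in the knockdown libraries, against 0, 0 and 0 counts in the control libraries. Its symbol lies on 2 sequences in the annotation, as that of ADCY4 does, so its level cannot be read from the table and the total of PKA catalytic RNA is not known here. PRKACG, known from testis, had a count of 0 in every library.

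PRKAR1A, the regulatory gene mutated in Carney complex, had the highest level per length of all 59 members, with 50.4 CPM per kb in knockdown and 50.4 CPM per kb in control. It stood at 357, 324 and 352 CPM in the knockdown libraries, against 334, 354 and 342 CPM in the control libraries. Groups overlapped, and no difference was detected (log2 fold change 0.00 with SE 0.05 and edgeR adjusted p = 0.98). PRKAR2A, a type II subunit that most AKAPs bind, stood at 139.5, 132 and 135 CPM in the knockdown libraries, against 127, 116 and 128 CPM in the control libraries. Its groups did not overlap, with a 1.09-fold higher level (log2 fold change 0.13 with SE 0.05 and edgeR adjusted p = 0.044). PRKAR2B, the second type II gene, was far lower, with 131, 87 and 93 counts in the knockdown libraries, against 76, 64 and 76 counts in the control libraries. In CPM the groups were separate, with 4.27, 2.94 and 3.16 CPM in knockdown and 2.60, 2.20 and 2.62 CPM in control libraries, and it was 1.40-fold higher (log2 fold change 0.48 with SE 0.16 and edgeR adjusted p = 0.017). PRKAR1B had overlapping groups (14.9 ± 0.907 CPM in knockdown and 16.2 ± 0.819 CPM in control, edgeR adjusted p = 0.24). Per length the 4 regulatory genes summed to 74.9 ± 3.04 CPM in knockdown and 73.1 ± 0.823 CPM in control, of which PRKAR1A made up 67.3 ± 0.814% in knockdown and 68.9 ± 1.75% in control. The PRKAR2A call was lost without knockdown library 1 (adjusted p = 0.16), knockdown library 3 (0.086) or control library 2 (0.23) and in DESeq2 (0.056), and that of PRKAR2B without knockdown library 1 (0.17) or control library 2 (0.10).

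Neither cGMP-dependent kinase passed the threshold. PRKG1, the form of smooth muscle and platelets that phosphorylates VASP there, was at 3.06 ± 0.348 CPM in knockdown and 2.95 ± 0.117 CPM in control (log2 fold change 0.06 with SE 0.14 and edgeR adjusted p = 0.78). PRKG2, the membrane-anchored form, had the higher level per length in both groups, with 0.291 CPM per kb in knockdown and 0.238 CPM per kb in control. PRKG2 had 57, 38 and 39 counts in the knockdown libraries, against 36, 33 and 37 counts in the control libraries. The groups were separate, though the nearest libraries differ by 1 count, and the difference missed the threshold (log2 fold change 0.30 with SE 0.20 and edgeR adjusted p = 0.26). At about 33 to 106 counts a library, the SE of these differences leaves room for an increase as large as that called for PDE7A.

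**Figure D3:**
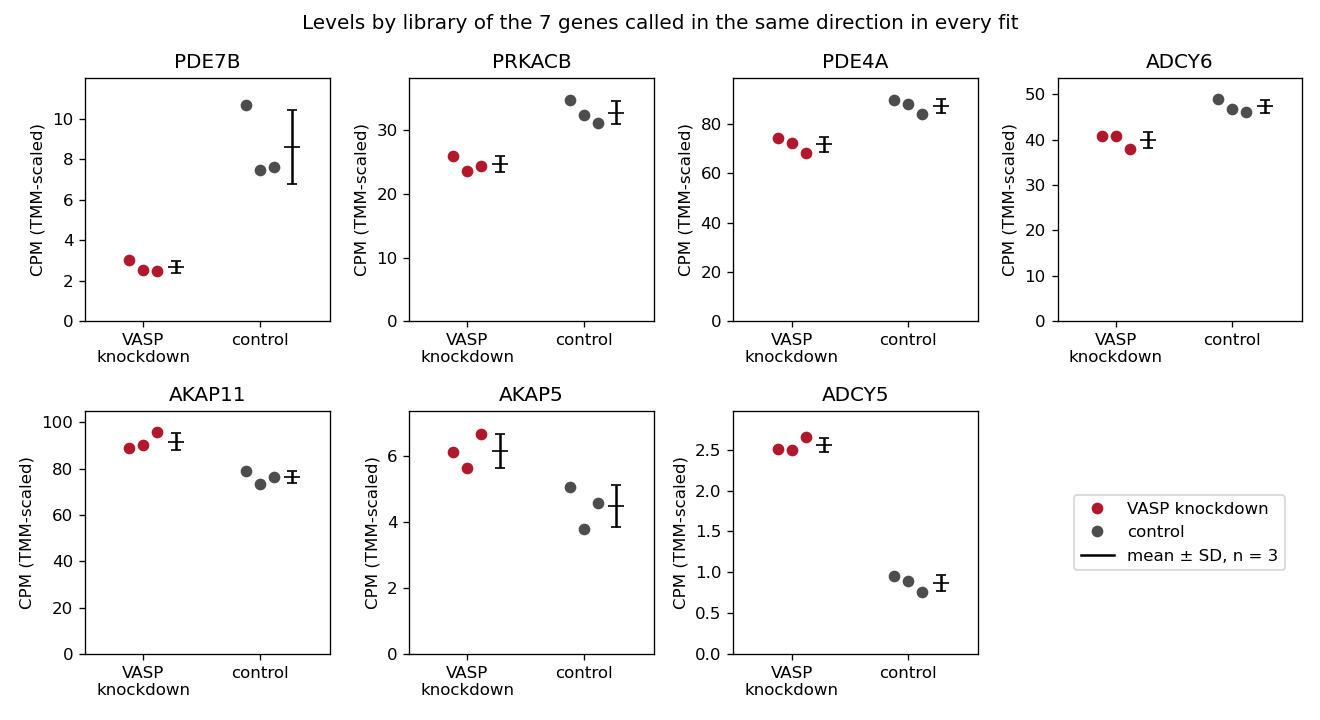
CPM in each library of the 7 members that passed the threshold in the same direction in every fit run, with VASP knockdown left of control, points for libraries and bars for the mean and SD (n = 3). ADCY5, AKAP5 and AKAP11 are higher and ADCY6, PDE4A, PDE7B and PRKACB lower in all 3 knockdown libraries than in any control library.

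Of the 10 AKAPs tested, AKAP5, AKAP9, AKAP10 and AKAP11 rose, AKAP12 fell, and 5 did not pass, beside 37.2% of all genes tested called, 18.9% up and 18.3% down. The class summed to 58.0 ± 1.20 CPM per kilobase in knockdown and 55.0 ± 1.29 CPM per kilobase in control. AKAP5, which gathers PKA, protein kinase C and calcineurin at the plasma membrane, stood at 6.12, 5.64 and 6.67 CPM in the knockdown libraries, against 5.07, 3.79 and 4.59 CPM in the control libraries. Its groups did not overlap, and it was 1.37-fold higher (log2 fold change 0.45 with SE 0.12 and edgeR adjusted p = 0.0044). AKAP11, which binds the kinase GSK3 and the type I subunits, stood at 89.1, 90.1 and 95.8 CPM in the knockdown libraries, against 78.9, 73.6 and 76.5 CPM in the control libraries. The groups were separate, and AKAP11 was 1.20-fold higher (log2 fold change 0.26 with SE 0.05 and edgeR adjusted p = 2.2e-04). AKAP9, a large scaffold of the centrosome and Golgi, stood at 28.7, 27.4 and 30.7 CPM in the knockdown libraries, against 23.7, 24.9 and 25.2 CPM in the control libraries, 1.18-fold higher with no overlap (log2 fold change 0.23 with SE 0.06 and edgeR adjusted p = 0.0056).

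AKAP10, which binds type I and type II subunits, stood at 47.3, 45.7 and 49.3 CPM in the knockdown libraries, against 42.9, 41.0 and 42.05 CPM in the control libraries. The groups were separate, and it was 1.13-fold higher (log2 fold change 0.18 with SE 0.05 and edgeR adjusted p = 0.014). AKAP12, also called gravin, a scaffold of PKA and protein kinase C, stood at 68.1, 65.4 and 69.1 CPM in the knockdown libraries, against 75.9, 68.7 and 78.2 CPM in the control libraries. It was the called member whose groups overlapped, and it was 1.10-fold lower (log2 fold change -0.14 with SE 0.05 and edgeR adjusted p = 0.048). AKAP1, which holds PKA at the outer mitochondrial membrane, had the highest level per length of the class, with 13.3 CPM per kb in knockdown and 13.3 CPM per kb in control. AKAP1 stood at 68.9, 73.1 and 71.1 CPM in the knockdown libraries, against 69.1, 70.4 and 74.2 CPM in the control libraries, with overlapping groups (log2 fold change -0.0044 with SE 0.05 and edgeR adjusted p = 0.96). The nuclear AKAP8 was at 50.2 ± 1.16 CPM in knockdown and 47.3 ± 2.11 CPM in control and AKAP13, which is also an activator of RhoA, at 46.3 ± 2.44 CPM in knockdown and 49.1 ± 2.48 CPM in control, with edgeR adjusted p = 0.23 and 0.26. AKAP6, known from the nuclear envelope of muscle cells, and AKAP7 did not pass either (adjusted p = 0.36 and 0.24). The sperm proteins AKAP3 and AKAP4 and the ciliary AKAP14 had at most 8 counts in a library and were not tested. The AKAP10 call was lost without knockdown library 3 (adjusted p = 0.080) or control library 2 (0.058). The AKAP12 call was lost without knockdown library 1 (0.099), 2 (0.21) or 3 (0.069), without control library 1 (0.13) or 3 (0.19), in DESeq2 (0.080), with size factors of DESeq2 (0.053) and with no filter on low counts (0.14).

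Fold changes in these libraries moved with base composition, and the members shared that pattern in part. Over 16367 tested genes, the log2 fold change fell as the GC content of the transcripts rose (Spearman's rho -0.42), with a median of 0.18 in the decile of genes with the lowest GC content and -0.24 in that with the highest. Over the 42 tested members rho was -0.22. These are descriptions across genes, which share the same 6 libraries and are not independent replicates. Members that rose had a median GC content of 42.8% (37.1% to 59.02%), and members that fell had 51.9% (36.1% to 59.5%). Some called members ran the other way: ADCY5 rose at 59.02% GC, and PRKACB fell at 36.1% GC, the lowest of the 42. PDE7B and GUCY1A2 also fell at a low GC content, of 42.9% and 40.1%.

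With a correction for GC content and length, 8 members rose and 7 fell, beside 17.3% of genes up and 12.1% down (29.3% in all), and 13 of the 20 calls were kept. ADCY5 (log2 fold change 1.68), PDE7B (-1.76), GUCY1A2 (-1.32) and PRKACB (-0.55) moved farther from 0 than without it. ADCY6 (-0.15, edgeR adjusted p = 0.032), PDE4A (-0.15, 0.018), AKAP5 (0.32, 0.040) and AKAP11 (0.13, 0.025) came closer to 0 and still passed. Calls of ADCY9 (adjusted p = 0.23), PDE2A (0.38), PDE10A (0.13), PDE12 (0.11), PRKAR2B (0.081), AKAP9 (0.13) and AKAP12 (0.059) were lost, and PDE4B (-0.38, 0.031) and AKAP8 (0.16, 0.022) gained one. Across this correction, the other settings and each left-out library, 7 of the 42 members were called in the same direction every time. That is close to the background of 17.5% of all genes tested. They were ADCY5, AKAP5 and AKAP11 upward, and ADCY6, PDE4A, PDE7B and PRKACB downward.

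**Figure D4:**
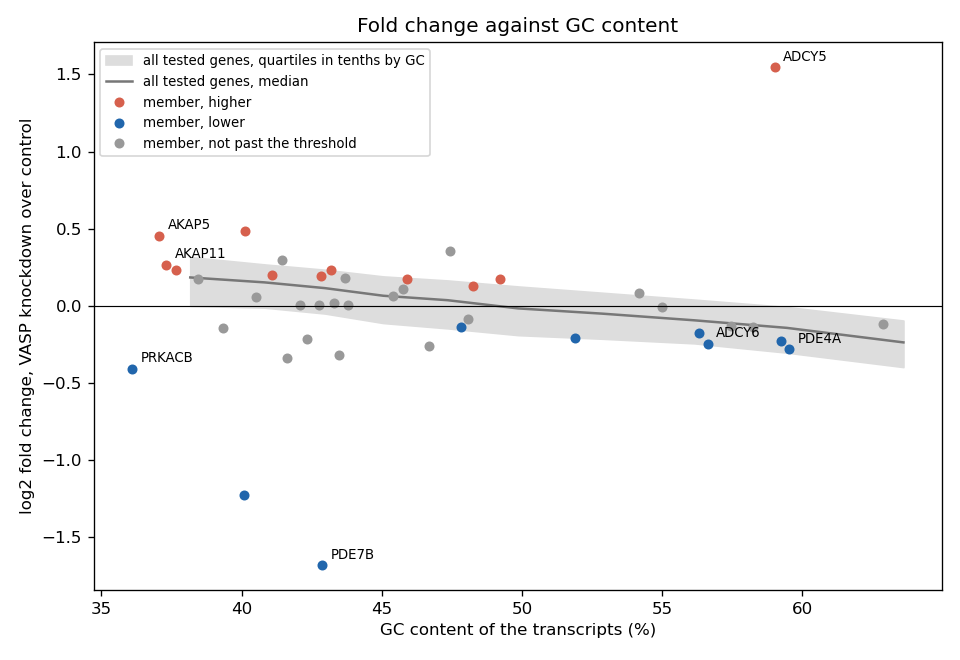
Log2 fold change, VASP knockdown over control, against GC content of the transcripts in percent, with the 42 tested members as points and the median and quartiles of all genes in deciles of GC content. The median of all genes runs from 0.18 in the lowest decile to -0.24 in the highest, and ADCY5, PDE7B and PRKACB lie away from it.

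The genes around the members were described by lists of the same pathway. Upstream, of 15 receptors that couple to the stimulatory G protein, 11 were tested, 1 rose and 3 fell, or 36.4% called beside 37.2% of all genes, which is close to that background. With the GC correction 2 rose and 2 fell. GPR161, a receptor of the primary cilium that signals to PKA, stood at 30.3, 30.9 and 30.6 CPM in the knockdown libraries, against 48.8, 47.2 and 49.1 CPM in the control libraries, without overlap (log2 fold change -0.66 with SE 0.05 and edgeR adjusted p = 2.8e-09). VIPR1, a receptor of vasoactive intestinal peptide, was at 5.24 ± 0.629 CPM in knockdown and 9.36 ± 1.89 CPM in control (log2 fold change -0.84, edgeR adjusted p = 6.6e-05). The prostacyclin receptor PTGIR fell, with low means of 0.356 ± 0.0732 CPM in knockdown and 0.699 ± 0.264 CPM in control (log2 fold change -0.96, adjusted p = 0.024), and the serotonin receptor HTR7 rose (log2 fold change 0.28, adjusted p = 0.016). PTGIR lost its call without knockdown library 3 (0.091), without control library 1 (0.19) and with the GC correction (0.090), and HTR7 without knockdown library 1 (0.057), knockdown library 2 (0.060) or control library 2 (0.14).

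Of 10 genes for G proteins and their regulators at the cyclases, 3 rose and none fell (edgeR), or 30% called beside 37.2% of all genes. With the GC correction 5 rose, as RIC8A and RGS19 gained calls (adjusted p = 0.012 and 0.049), and the log2 fold change of RGS19 was 0.17 with it and -0.08 without it. GNAZ, GNAI1, GNAI2 and GNAI3 encode alpha subunits of the inhibitory family. GNAI2 had the highest level of these, with means of 571 CPM in knockdown and 605.5 CPM in control. Neither GNAI2 nor GNAI1 passed (log2 fold change -0.08 and 0.09, edgeR adjusted p = 0.21 and 0.24), while GNAZ and GNAI3 rose. GNAZ was at 5.34 ± 0.289 CPM in knockdown and 3.22 ± 0.0936 CPM in control (log2 fold change 0.73, adjusted p = 4.3e-05) and GNAI3 at 142 ± 2.39 CPM in knockdown and 118 ± 6.90 CPM in control (log2 fold change 0.27, adjusted p = 1.9e-04). RGS2 rose as well (log2 fold change 0.39, adjusted p = 0.0057), a call lost without knockdown library 2 (0.056). GNAS, which encodes the stimulatory subunit, did not pass, at 1647 ± 102 CPM in knockdown and 1624 ± 26.1 CPM in control (log2 fold change 0.02, adjusted p = 0.80). On the cGMP side, the natriuretic peptide receptors NPR1 and NPR2, which are membrane guanylyl cyclases, both fell, and they were 2 of the 4 tested of 9 listed, or 50% called beside 37.2% of all genes. NPR2 was at 9.88 ± 1.36 CPM in knockdown and 13.8 ± 0.423 CPM in control (log2 fold change -0.49, adjusted p = 2.0e-04) and NPR1 at 3.63 ± 0.0575 CPM in knockdown and 5.48 ± 1.00 CPM in control (log2 fold change -0.59, adjusted p = 0.0011).

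Downstream of cAMP, of 6 listed PKA inhibitors and related kinases 5 were tested and PKIG fell, or 20% called beside 37.2% of all genes. PKIG, a peptide inhibitor of the catalytic subunits, stood at 42.4, 43.6 and 42.6 CPM in the knockdown libraries, against 52.2, 54.9 and 51.9 CPM in the control libraries, without overlap (log2 fold change -0.31 with SE 0.05 and edgeR adjusted p = 8.1e-05), in the same direction as PRKACB. Of 11 other effectors, 6 were tested, 1 rose and 2 fell, or 50% called beside 37.2% of all genes. The channel gene HCN4 rose (log2 fold change 0.87, adjusted p = 1.9e-04), HCN2 fell (log2 fold change -0.47, adjusted p = 2.5e-04), and so did RAPGEF4, an exchange factor for RAP that cAMP activates (log2 fold change -0.79, adjusted p = 0.011). HCN2 lost its call with the GC correction (0.50), and RAPGEF4 without knockdown library 3 (0.074) or control library 1 (0.089). Of 11 genes of the CREB family and its coactivators, CREB1 (log2 fold change 0.23, adjusted p = 0.0028) and ATF1 (log2 fold change 0.20, adjusted p = 0.0055) rose and CREBBP fell (log2 fold change -0.17, adjusted p = 0.0095), or 27.3% called beside 37.2% of all genes. With the GC correction all 3 calls were lost (adjusted p = 0.085, 0.084 and 0.17), while CRTC1 (log2 fold change 0.19 with it and -0.04 without, adjusted p = 0.022) and CRTC2 (0.0044) gained upward calls and CREM a downward one (0.0061). The call of CREBBP was also lost without knockdown library 2 (0.11).

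Of the genes known as CREB targets, most of those tested fell. Of 16 listed, 14 were tested, 2 rose and 8 fell, which is 71.4% called beside 37.2% of all genes, and the median log2 fold change was -0.40 beside -0.01. The list was chosen with earlier results of these data known. With the GC correction the counts were again 2 and 8, with a median of -0.32, as PER1 lost its call and CREM gained one. AREG, a ligand of the epidermal growth factor receptor, was at 7.002, 8.62 and 7.38 CPM in knockdown and 12.5, 11.8 and 12.9 CPM in control libraries (log2 fold change -0.69 with SE 0.09 and edgeR adjusted p = 3.4e-06). PPARGC1A, a coactivator of mitochondrial genes, was at 6.90, 6.45 and 6.77 CPM in knockdown and 9.45, 8.82 and 9.22 CPM in control libraries (log2 fold change -0.45 with SE 0.09 and edgeR adjusted p = 4.7e-04). Groups did not overlap for either gene. DUSP1, a phosphatase of MAP kinases, fell too (log2 fold change -0.47, adjusted p = 5.1e-06), while CCNA2, a cyclin of S phase, rose (log2 fold change 0.47, adjusted p = 7.2e-08). The early-response gene FOS varied within groups, with 318, 431 and 282 CPM in knockdown and 381, 523 and 407 CPM in control libraries, and was not called (edgeR adjusted p = 0.31). NR4A2, a nuclear receptor of the same kind of response, stood at 59.99, 91.2 and 68.5 CPM in knockdown and 102, 133 and 108 CPM in control libraries, without overlap. It missed the threshold (log2 fold change -0.64, edgeR adjusted p = 0.077) but passed in DESeq2 (0.012) and without knockdown library 2 (log2 fold change -0.82, edgeR adjusted p = 0.0016). Calls were lost for NR4A1 without knockdown library 3 (0.066), for NR4A3 without control library 2 (0.087), for PER1 without knockdown library 1 (0.053) or control library 2 (0.12) and with the GC correction (0.41), and for BDNF without knockdown library 1 (0.10) or 2 (0.15) or control library 2 (0.063) or 3 (0.092) and with no filter on low counts (0.055).

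**Figure D5:**
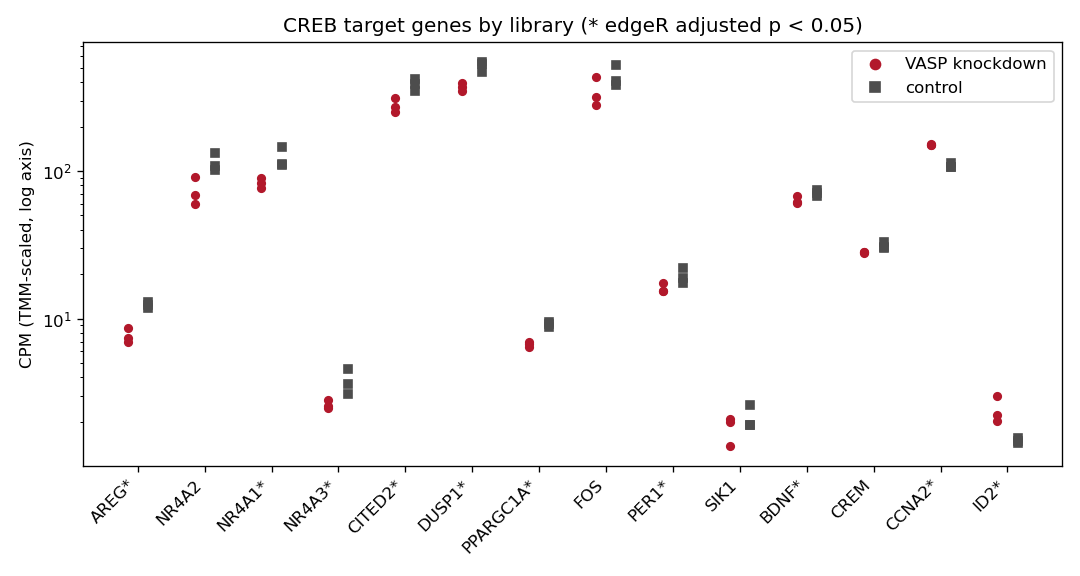
CPM on a log axis in each library of the 14 tested genes listed as CREB targets, with circles for VASP knockdown left of squares for control. An asterisk after the gene name marks an edgeR adjusted p under 0.05. Of the 14 genes, 8 fell and 2, CCNA2 and ID2, rose.

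Of 17 anchoring proteins whose symbols fall outside the AKAP pattern, 13 were tested, 6 rose and 2 fell, or 61.5% called beside 37.2% of all genes, with a median log2 fold change of 0.12, and 5 rose and 1 fell with the GC correction. Among them, RDX and EZR, which link the membrane to actin and bind PKA, rose. RDX was at 119, 122 and 123 CPM in knockdown and 101, 96.1 and 99.7 CPM in control libraries (log2 fold change 0.29 with SE 0.05 and edgeR adjusted p = 3.4e-05), and EZR at 248.9, 258 and 248.9 CPM in knockdown and 204, 211 and 220.4 CPM in control libraries (log2 fold change 0.25 with SE 0.05 and edgeR adjusted p = 2.2e-04). Neither gene's groups overlapped. MSN, the third gene of that family, was at 1953 ± 71.0 CPM in knockdown and 1986 ± 61.1 CPM in control with no call (edgeR adjusted p = 0.76). GSKIP, a small anchoring protein that binds GSK3 as AKAP11 does, also rose (log2 fold change 0.31, adjusted p = 5.3e-04), as did ARFGEF1 (log2 fold change 0.24, adjusted p = 0.0016), an activator of ARF proteins. The calls of NBEA, PDE4DIP, MAP2 and RAB32 were each lost without at least 1 library, with the highest such adjusted p at 0.19 for NBEA, 0.050 for PDE4DIP, 0.071 for MAP2 and 0.21 for RAB32. NBEA also lost its call in DESeq2 (0.098) and with the GC correction (0.16), and RAB32 in DESeq2 (0.073), with the GC correction (0.45) and with no filter on low counts (0.13).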

How the data were processed

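RNA from 6 libraries, 3 of VASP knockdown and 3 of control, was analysed from the gene counts the authors deposited: whole-number counts of fragments per symbol, not normalized, made with featureCounts 1.6.4 over exons of GENCODE release 32 with patches and alternate sequences, per the file headers. The header shows no strand, multi-mapping or multi-overlap option. Trim Galore 0.6.4, STAR 2.7.1a and hg38 are named in the submitters' processing notes. Control columns show their group but not their sample, so control libraries are numbered by their order in the table, as names only.

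Genes kept by filterByExpr (16633) were scaled by TMM and tested with edgeR 4.0.16 (R 4.3.3, quasi-likelihood, two-sided, Benjamini-Hochberg over all genes, threshold 0.05), a procedure tested on simulated data. SE is the size of the log2 fold change divided by the square root of F. Alternatives were DESeq2 1.42.0, its size factors, no filter, at least 1 CPM in 3 libraries, each library left out, and a per-library spline correction (5 degrees of freedom) for GC content, from GENCODE release 29 transcripts, and length. Floors cover counting error only. Members and lists were chosen with earlier results of these data known. Values in all libraries are given for called members and for the member with the highest level per length in a class, and for up to 4 called genes of each pathway list with the smallest p. GNAS, GNAI1, GNAI2, MSN, FOS, NR4A2 and other listed genes whose calls were lost were named after their values were seen. The result of 1 listed gene is not reported here.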

Additional observations from a re-analysis of the deposited data

How the results depend on the processing

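Of the 20 called members, 8 kept their call whichever library was left out, and the matching share of all genes was not computed. In every fit run, 7 of 42 members were called in the same direction, beside 17.5% of all genes tested. Leaving out a library gave 6 to 11 members up and 6 to 9 down (11 and 9 with all libraries), with 6 up without knockdown library 3 and 7 up without control library 2. Over all genes it gave 2238 to 3249 up and 2243 to 3150 down, and for the pathway lists 12 to 16 up and 15 to 17 down (15 and 19 with all). With the GC and length correction 1973 genes fell, against 3039 without it, and 2827 rose, against 3148. DESeq2 called 10 of the 42 members up and 6 down, beside 16.5% of all genes up and 14.8% down. It gave no adjusted p for GUCY1A2 or PTGIR. When CPM were not divided by exon length, the log2 ratio of the summed level, knockdown over control, was 0.0529 instead of -0.03 for dual-specificity phosphodiesterases and 0.0437 instead of 0.10 for soluble guanylyl cyclase. Over the 132 tested members and listed genes under all alternatives, 1334 values gave the same verdict, 83 lost a call, 19 gained one, and 2 changed sign and were called, CRTC1 (0.19) and RGS19 (0.17), both with the GC correction. No paired analysis was possible because the control columns carry no replicate number of the labels. Genes under about 20 counts a library, such as GUCY1A2, are limited by depth.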
